A study of Mus musculus with 12 samples.

Results

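The transcription factor genes that carry the output of the circadian clock were followed through inflammatory activation of bone marrow-derived macrophages (BMDM) with and without the clock factor Bmal1. The group holds the PAR-bZIP genes Dbp, Tef and Hlf, their opponent Nfil3, and the DEC genes Bhlhe40 and Bhlhe41. These 6 genes were taken by symbol from a table of 23440 genes. In the study, BMDM of strain C57/BL6 were differentiated for 7 days in L929-conditioned medium and primed overnight with interferon gamma (Ifn-γ) in every group. Controls received no further stimulus, and M1-activated cells also received lipopolysaccharide (LPS) for 8 h. Wild-type (WT) cells came from mice with a floxed Bmal1 gene and no Cre, and myeloid Bmal1 knockout (M-BKO) cells from mice that in addition carry Lyz2-Cre, a Cre recombinase placed in the lysozyme gene of myeloid cells. Each of the 4 groups has 3 cell cultures, and the number of mice behind them is not given. Per the study's methods the mice were adults matched for age and sex, and the age behind each library is not stated. The p-values measure the spread between cultures, which may be technical.

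PAR-bZIP proteins are leucine zipper activators that bind the D-box, a short element with palindromic arms, in promoters of metabolic and clock genes. Nfil3, also called E4bp4, binds the same element and represses from it, and in macrophages it is known to limit transcription of Il12b. The DEC proteins, also called Dec1 (Bhlhe40) and Dec2 (Bhlhe41), are helix-loop-helix repressors that bind the E-box, the element through which Bmal1 and its partner Clock activate transcription. In liver, Dbp is a textbook direct target of Bmal1 and Clock. Bhlhe40 is known in immune cells as a repressor of Il10.

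Sequences upstream of the tested genes are shown because the E-box and the D-box are the elements through which these factors and Bmal1 act. The consensus E-box is in the windows of Tef and Bhlhe41 and not in those of Dbp, Nfil3 and Hlf, and its relation to expression was not tested. RefSeq (GRCm38.p6, the assembly named mm10 in the deposited table) gives windows from 250 bases before to 50 after a transcript start for 5 of the 6 genes, with 2 starts for Tef and none matched for Bhlhe40. All are written 5′ to 3′ in lower case, with the E-box CACGTG in capitals.
Tef, first start, chr15:81802423-81802722, plus strand: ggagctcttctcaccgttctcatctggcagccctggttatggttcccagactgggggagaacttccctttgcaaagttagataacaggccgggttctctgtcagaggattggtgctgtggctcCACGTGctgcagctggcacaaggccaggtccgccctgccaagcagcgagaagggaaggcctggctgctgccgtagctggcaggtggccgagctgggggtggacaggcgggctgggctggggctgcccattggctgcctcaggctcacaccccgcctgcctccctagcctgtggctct
Tef, second start, chr15:81811164-81811463, plus strand: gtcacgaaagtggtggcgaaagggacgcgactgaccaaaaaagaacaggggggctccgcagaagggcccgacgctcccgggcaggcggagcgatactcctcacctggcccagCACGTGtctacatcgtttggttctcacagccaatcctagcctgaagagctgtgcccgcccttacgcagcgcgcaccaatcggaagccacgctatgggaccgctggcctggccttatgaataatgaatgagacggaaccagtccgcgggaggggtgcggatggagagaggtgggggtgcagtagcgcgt
Bhlhe41, chr6:145865371-145865670, minus strand: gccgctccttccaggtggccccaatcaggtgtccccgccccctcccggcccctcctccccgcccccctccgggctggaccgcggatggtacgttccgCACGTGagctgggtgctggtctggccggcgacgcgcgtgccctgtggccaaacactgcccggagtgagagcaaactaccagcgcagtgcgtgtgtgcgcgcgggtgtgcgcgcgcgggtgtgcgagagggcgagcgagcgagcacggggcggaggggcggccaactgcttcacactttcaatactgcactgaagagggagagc
Dbp, chr7:45704997-45705296, plus strand: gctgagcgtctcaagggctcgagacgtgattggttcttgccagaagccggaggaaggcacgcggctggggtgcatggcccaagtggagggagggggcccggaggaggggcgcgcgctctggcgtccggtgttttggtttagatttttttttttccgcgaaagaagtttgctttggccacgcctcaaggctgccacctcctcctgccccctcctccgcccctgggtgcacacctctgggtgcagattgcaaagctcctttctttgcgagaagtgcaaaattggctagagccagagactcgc
Nfil3, chr13:52980990-52981289, minus strand: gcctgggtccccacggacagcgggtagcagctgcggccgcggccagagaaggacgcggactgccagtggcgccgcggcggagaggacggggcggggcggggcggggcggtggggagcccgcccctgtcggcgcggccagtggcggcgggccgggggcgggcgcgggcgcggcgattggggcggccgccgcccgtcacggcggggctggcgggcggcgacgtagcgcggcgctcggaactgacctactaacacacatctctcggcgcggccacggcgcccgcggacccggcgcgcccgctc

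The E-box began 127 bases before the first Tef start, 138 bases before the second and 153 bases before the Bhlhe41 start. Of 32851 mouse promoter windows of the same length, 7.15% held CACGTG, which reads the same on both strands. The variant CACGTT (either strand; 4.68% of windows) and the D-box TTANGTAA (2.32%) were in none of the 6 windows. A loose NF-κB pattern (GGG, any 5 bases, then CC, on either strand) was in both Tef windows and those of Bhlhe41 and Hlf, and in 50.8% of all windows. The Hlf window alone among the 6 held TGACGTCA, the cyclic AMP response element, which 1.79% of windows held. These motifs were chosen after the sequences had been seen, and a match describes letters, not a bound site.

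The deposited values are TPM, each transcript's share of the total after division by its length, so that levels of different genes can be compared. The number of reads is not kept. The libraries had values above 0 for 13315 to 13574 genes. The deleted gene, listed as Arntl, was at 7.25 to 7.71 TPM in WT controls and 1.97 to 2.46 TPM in M-BKO controls, and at 4.81 to 5.801 and 3.03 to 3.39 TPM after M1. Lyz2, which carries the Cre, was at 33010 ± 1475 TPM in WT controls and 54.9 ± 7.20 TPM in M-BKO controls (SD, n = 3), so loss of Bmal1 and the Cre insertion cannot be told apart. Of 8 macrophage markers 7 were found, and all 7 averaged at least 1 TPM, with Cd68 at 689 to 2010 TPM. Summed neutrophil markers (7 of 8 found, 5 of them averaging at least 1 TPM) were at 257 to 289 TPM in WT controls and 329 to 380 in M-BKO controls, and at 87.5 to 94.4 and 124 to 131 TPM after M1. The highest of them were S100a9 at 42.8 to 214 TPM and S100a8 at 27.2 to 117 TPM, while Mpo and Elane stayed below 1 TPM. The 6 dendritic cell markers, 2 of them averaging at least 1 TPM, summed to 61.5 to 85.8 TPM in the controls and 11.0 to 14.4 TPM after M1, with Clec9a at 3.98 to 81.5 and Flt3 and Zbtb46 below 0.5 TPM. Summed B cell markers reached at most 5.84 TPM, stromal markers 3.20, T and NK cell markers 0.879, mast cell and basophil markers 0.650 and erythroid markers 0.495 TPM, and Ncr1, Mcpt8 and Hba-a2 were at 0 in all libraries. WT control replicate 3 had the largest spread of residuals, 0.142 on the log2 scale, against 0.0777 to 0.108 in the others.

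Nfil3 was the most abundant of the 6 genes in every group, and Hlf was close to undetected. In WT controls the order by mean TPM was Nfil3, Tef, Bhlhe40, Dbp, Bhlhe41 and Hlf, and Dbp and Bhlhe41 overlapped between cultures. In M1-activated WT macrophages it was Nfil3, Bhlhe40, Tef, Bhlhe41, Dbp and Hlf, with no overlap between neighbours. Nfil3 stood above 58.8% of the genes tested in WT controls and above 86.6% after M1, Bhlhe40 above 27.6% and 74.6%, and Bhlhe41 above 12% and 35.0%. Hlf, a PAR-bZIP factor best known from liver and blood stem cells, was above 0 in 7 of 12 libraries with a maximum of 0.0175 TPM, and was listed at 0 in all WT controls. It did not pass the filter of at least 1 TPM in at least 3 libraries, so 5 of the 6 genes were tested.

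**Figure D1:**
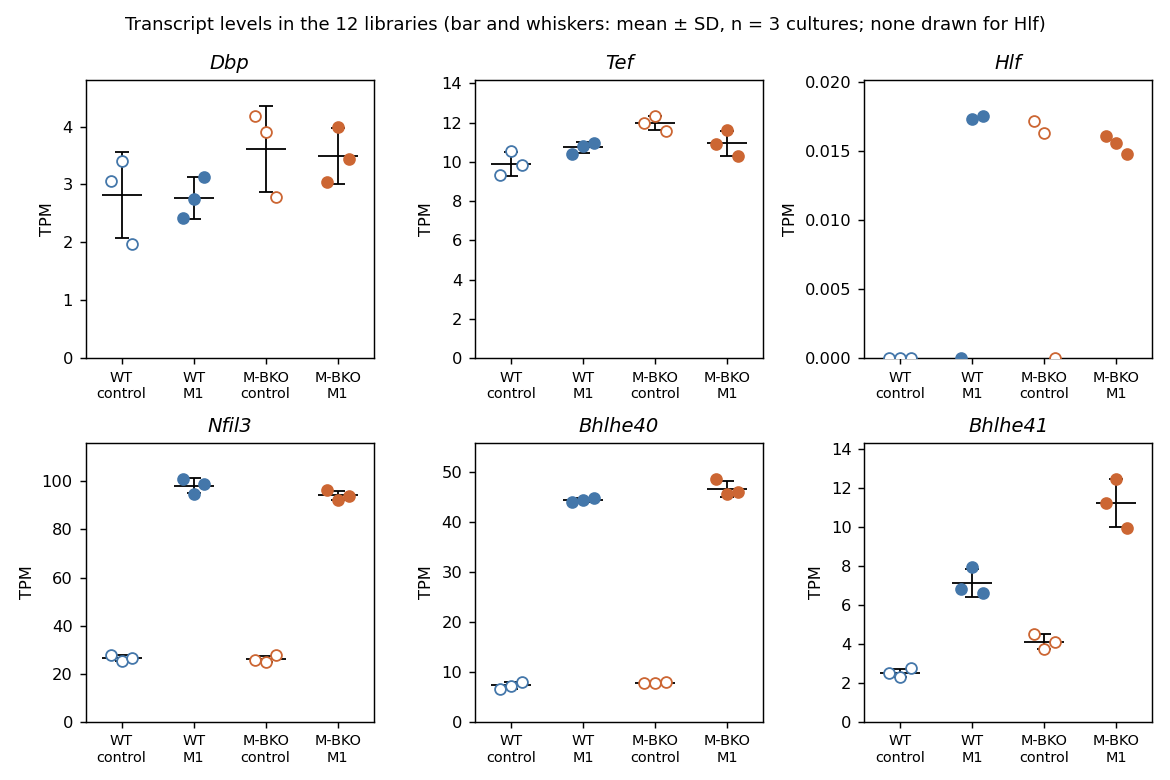
TPM of each gene in the 12 libraries by group, with points for cultures and bars and whiskers for the mean ± SD of 3 cultures (none for Hlf). Nfil3 and Bhlhe40 separate by M1 activation, from 24.9 to 27.8 up to 92.4 to 100.8 TPM for Nfil3, and Bhlhe41 separates by M1 activation and by genotype in both treatments.

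With M1 activation the repressors Nfil3, Bhlhe40 and Bhlhe41 rose in both genotypes, and neither of the tested PAR-bZIP activators was called. Nfil3, the D-box repressor (chr13:52967209-52981039), was at 27.8, 25.1 and 26.6 TPM in the WT control cultures and at 100.8, 94.7 and 98.9 TPM after M1. In M-BKO macrophages it went from 25.7, 24.9 and 27.6 to 96.2, 92.4 and 93.9 TPM. Treated cultures all lay above controls in both genotypes, as for 21.8% of the genes tested in WT and 22.7% in M-BKO. Another 62.6% and 66.5% lay wholly lower after M1. On log2(TPM + 1), a scale that understates changes of low genes, the rise was 1.85 ± 0.050 (SE, adjusted p = 2.4e-13, limma) in WT and 1.81 ± 0.050 (SE, adjusted p = 2.8e-13) in M-BKO, or 3.70-fold and 3.61-fold in mean TPM. As the RNA comes from whole cultures, a change in the make-up of the cells and a change in RNA per cell cannot be told apart.

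Bhlhe40 (Dec1, chr6:108660629-108666925) had the largest M1 response of the group. Its WT values were 6.61, 7.23 and 7.99 TPM in controls and 43.9, 44.4 and 44.7 TPM after M1. The M-BKO values were 7.76, 7.70 and 7.93 TPM in controls and 48.5, 45.5 and 45.9 TPM after M1. Within each genotype all activated cultures lay above all controls, as for 21.8% of the genes tested in WT and 22.7% in M-BKO. The rise was 6.09-fold in mean TPM in WT and 5.98-fold in M-BKO. The log2 rise was 2.46 ± 0.060 (SE, adjusted p = 8.6e-14, limma) in WT, rank 184 from the top of 10822 genes, and 2.44 ± 0.060 (SE, adjusted p = 9.0e-14) in M-BKO, rank 190.

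Bhlhe41 (Dec2, chr6:145858243-145865420), the paralog with the same E-box preference, started lower and rose less. WT controls had 2.49, 2.32 and 2.74 TPM and WT M1 cultures 6.82, 7.95 and 6.64 TPM. In M-BKO the controls had 4.53, 3.75 and 4.08 TPM and the M1 cultures 11.3, 12.5 and 9.99 TPM. Within each genotype the M1 cultures lay above the controls, as for 21.8% of the genes tested in WT and 22.7% in M-BKO. Within each treatment the M-BKO cultures lay above WT, as for 22.6% without LPS and 20.8% after M1. The log2 rise with M1 was 1.21 ± 0.094 (SE, adjusted p = 2.0e-08, limma) in WT and 1.26 ± 0.094 (SE, adjusted p = 1.2e-08) in M-BKO, or 2.84-fold and 2.73-fold in mean TPM.

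Dbp, the D-box activator with the best known daily rhythm (chr7:45705247-45710203), was at 3.07, 3.41 and 1.98 TPM in WT controls and 2.42, 2.74 and 3.13 TPM after M1. In M-BKO it was at 4.18, 3.90 and 2.78 TPM in controls and 3.04, 3.99 and 3.45 TPM after M1. Control and M1 cultures overlapped in both genotypes, and Dbp varied most between WT control cultures, by 26.6% of its mean against 4.95% to 9.50% for the other tested genes. The log2 difference with M1 was -0.0049 in WT (95% interval -0.33 to 0.32, adjusted p = 0.976, limma) and -0.033 in M-BKO (-0.36 to 0.29, adjusted p = 0.84), so that changes of up to about 0.3 on the log2 scale in either direction remain possible. Dbp overlaps Sphk2, a sphingosine kinase gene on the opposite strand at 39.2 to 58.6 TPM in group means, over 740 bases. The library kit keeps strand, but whether strand was used in counting is not stated, so the Dbp values are uncertain to that extent.

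Tef (chr15:81802673-81826863) was the main PAR-bZIP transcript, at 74.1% to 83.3% of the Dbp, Tef and Hlf sum in every library. Its WT values were 9.31, 10.5 and 9.84 TPM in controls and 10.4, 10.8 and 10.95 TPM after M1. Its M-BKO values were 12, 12.3 and 11.6 TPM in controls and 10.9, 11.6 and 10.3 TPM after M1. The groups with and without LPS overlapped in each genotype, by a single pair of cultures in each. The log2 difference with M1 was 0.11 in WT (95% interval -0.028 to 0.24, adjusted p = 0.12, limma) and -0.12 in M-BKO (-0.26 to 0.016, adjusted p = 0.0905).

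In all, 3 of the 5 tested genes were called higher after M1 in each genotype and none lower, at an adjusted p under 0.05 and a fold over 1.5. The background was 12.9% of the tested genes higher and 41.0% lower in WT, and 12.3% higher and 42.3% lower in M-BKO. The median gene shifted by -0.43 in WT and -0.45 in M-BKO. After each library was scaled by its median ratio to the average library, the shares were 22.9% higher and 21.1% lower in WT and 22.4% and 22.1% in M-BKO. The rises of Nfil3, Bhlhe40 and Bhlhe41 in WT then came to 2.32, 2.90 and 1.59. Dbp moved to 0.34 (adjusted p = 0.051, limma) in WT and 0.35 (adjusted p = 0.048) in M-BKO, and Tef to 0.54 (adjusted p = 3.7e-06) and 0.33 (adjusted p = 3.6e-04), none of them past the fold of 1.5. Thus the sign of the small differences of Dbp in both genotypes and of Tef in M-BKO depended on the scaling, while the calls of all 5 genes did not. Summed neutrophil, dendritic cell and B cell markers were lower after M1 in both genotypes, the last at 3.82 to 4.14 and 0.642 to 0.903 TPM in WT and 3.87 to 5.84 and 1.41 to 1.62 TPM in M-BKO. The macrophage sum, which includes Lyz2, was lower as well, at 36300 to 38900 and 18600 to 18900 TPM in WT and 5030 to 5170 and 4220 to 4310 TPM in M-BKO. Stromal markers were higher, at most 1.61 TPM in controls and 2.43 to 3.20 TPM after M1. The part of these shifts in the responses was not tested.

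**Figure D2:**
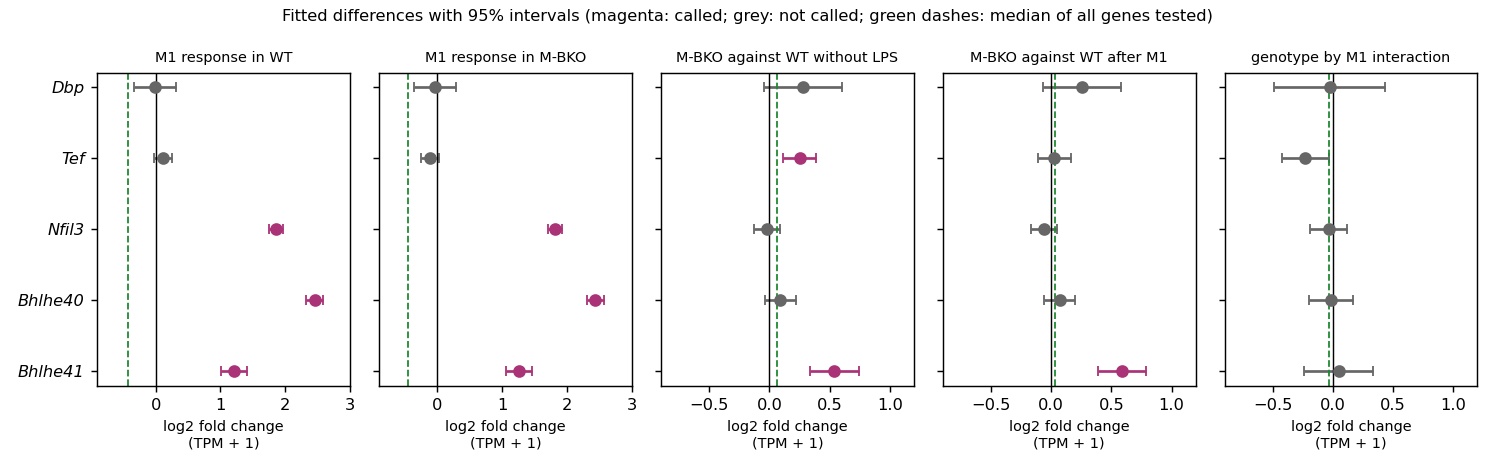
Log2 fold change on TPM + 1 (x axis) of the 5 tested genes in the 5 comparisons, with 95% intervals; called genes are magenta and dashes mark the median of all genes tested. Bhlhe41 is called in the M1 and the genotype comparisons, Nfil3 and Bhlhe40 with M1 only, Tef without LPS only, and no gene in the interaction.

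Without LPS, Bhlhe41 and Tef were higher in M-BKO than in WT macrophages, and after M1 activation only Bhlhe41 was called. The difference of Bhlhe41 was 0.54 ± 0.094 (SE, log2 scale, adjusted p = 0.0041, limma) without LPS and 0.59 ± 0.094 (SE, adjusted p = 0.0019) after M1, or 1.64-fold and 1.58-fold in mean TPM. It ranked 56 and 57 from the top of 10822 genes, and all M-BKO cultures lay above the WT cultures of the same treatment. The share of all tested genes of which this held was 22.6% without LPS and 20.8% after M1. The call was kept under all 23 alternatives in each comparison, with adjusted p of 0.0029 to 0.0271 and 6.9e-04 to 0.0143. Its size without LPS was 0.28 with a pseudocount of 5 and 0.69 with 0.1. Summed neutrophil markers, with S100a8 and S100a9 the highest among them, were also higher in the M-BKO cultures of both treatments. The study lists S100a8 and S100a9 among targets of the hypoxia-inducible factor Hif-1α that are higher in M1-activated M-BKO macrophages. Whether the share of neutrophils differed, and the part of these markers in the differences of Bhlhe41, was not tested.

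Tef differed by 0.25 ± 0.063 (SE, adjusted p = 0.0343, limma) without LPS, 1.21-fold in mean TPM. All 3 M-BKO controls lay above all WT controls, as for 22.6% of the genes tested. This call was lost in 10 of 23 alternatives, the highest adjusted p being 0.21. It went with median-ratio scaling (0.19, adjusted p = 0.21) and already when Lyz2 alone was taken out of the TPM total (0.21, adjusted p = 0.104). Leaving out WT control replicate 1, any single M-BKO control or M-BKO M1 replicate 1 also ended it, with adjusted p of 0.0523 to 0.138. After M1 the difference of Tef was 0.024 (95% interval -0.11 to 0.16, adjusted p = 0.85).

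**Figure D3:**
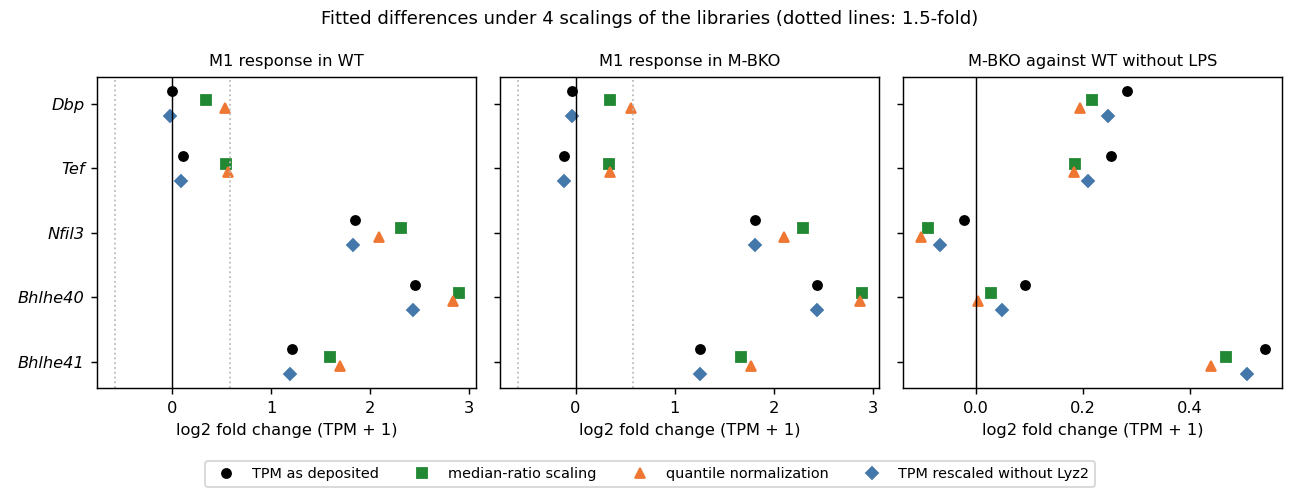
Log2 fold changes of the 5 tested genes (x axis) under 4 scalings of the libraries, for both M1 responses and for M-BKO against WT without LPS, with dotted lines at a fold of 1.5. The rises of Nfil3, Bhlhe40 and Bhlhe41 with M1 stay past the line under each of the 4 scalings, while Dbp and Tef move from near 0 to 0.33 to 0.56 under median-ratio and quantile scaling.

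Dbp was not called between genotypes. Its difference was 0.28 without LPS (95% interval -0.043 to 0.61, adjusted p = 0.308, limma) and 0.25 after M1 (-0.071 to 0.58, adjusted p = 0.322), with overlapping cultures in both. Without WT control replicate 3, the lowest Dbp value of the series, the first of these was 0.11 (adjusted p = 0.619). The intervals leave room for a rise of M-BKO over WT of about the size seen for Bhlhe41, and for a fall of less than 0.1. Nfil3 differed by -0.022 without LPS (-0.13 to 0.087, adjusted p = 0.847) and -0.059 after M1 (-0.17 to 0.050, adjusted p = 0.507). Bhlhe40 differed by 0.091 (-0.039 to 0.22, adjusted p = 0.414) and 0.072 (-0.058 to 0.20, adjusted p = 0.496), although its M-BKO M1 cultures all lay above WT, as for 20.8% of the genes tested.

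Of the 5 tested genes, 2 were called higher without LPS and 1 after M1, and none lower. The background was 4.56% of all genes higher and 1.12% lower without LPS, and 5.87% higher and 2.45% lower after M1. After median-ratio scaling, 1 of the 5 was called in each comparison, against 1.32% of all genes higher and 1.74% lower without LPS, and 3.85% and 4.40% after M1. The test of whether the M1 response differed between genotypes called none of the 5 (limma), and 1.38% of all genes. Before adjustment Tef alone passed 0.05 in limma, with a difference between the responses of M-BKO and WT of -0.23 (95% interval -0.42 to -0.036, adjusted p = 0.244). For Bhlhe41 the difference between the responses was 0.047 (-0.24 to 0.33, adjusted p = 0.891), for Bhlhe40 -0.019 (-0.20 to 0.16, adjusted p = 0.933) and for Nfil3 -0.037 (-0.19 to 0.12, adjusted p = 0.83). Dbp had the widest interval, -0.49 to 0.43 around -0.029 (adjusted p = 0.962).

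Ratios between genes of the same library do not depend on the scaling between libraries. The summed PAR-bZIP level, given by Dbp, Tef and Hlf together, was 12.7 ± 1.101 TPM in WT controls, 13.5 ± 0.637 in WT M1, 15.6 ± 1.07 in M-BKO controls and 14.4 ± 1.02 TPM in M-BKO M1 cultures (SD, n = 3 each). Divided by Nfil3, it was 0.446, 0.554 and 0.444 in the WT controls and 0.127, 0.144 and 0.143 after M1. In M-BKO the ratio was 0.629, 0.651 and 0.521 in controls and 0.145, 0.169 and 0.147 after M1. In both genotypes the ratio after M1 lay below all controls, and the genotypes overlapped in the controls but not after M1, where the M-BKO cultures lay just above WT. No test was made on these ratios, which combine genes described above.

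The balance of the DEC paralogs moved with both factors. Bhlhe41 over Bhlhe40 was 0.377, 0.321 and 0.343 in WT controls and 0.155, 0.179 and 0.149 in WT M1 cultures. In M-BKO it was 0.584, 0.487 and 0.515 in controls and 0.232, 0.274 and 0.217 after M1. No group overlapped another: the ratio was lower after M1 in each genotype and higher in M-BKO in each treatment.

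**Figure D4:**
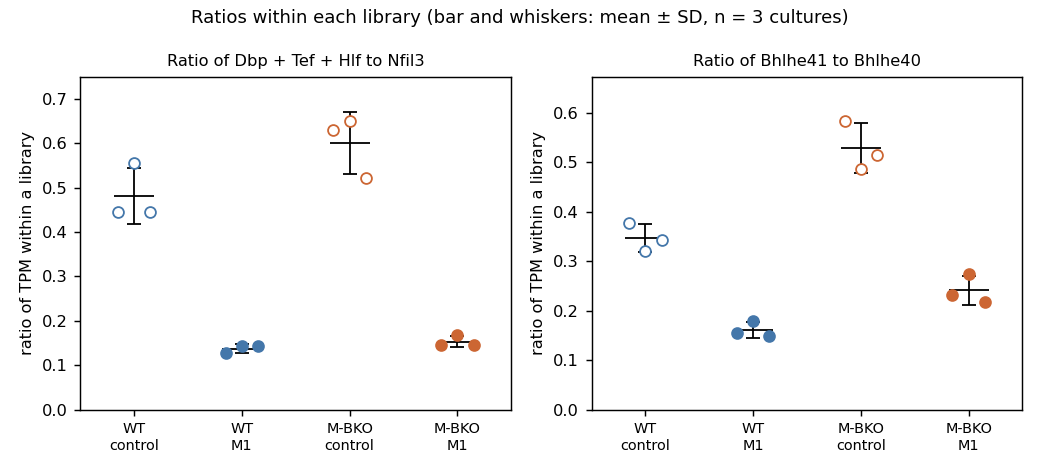
Ratios of TPM within each library (y axis) by group, with points for cultures and bars and whiskers for the mean ± SD of 3 cultures. The PAR-bZIP to Nfil3 ratio averages 0.482 in WT controls and 0.138 in WT M1 cultures, 0.601 and 0.154 in M-BKO, and the 4 groups of the Bhlhe41 to Bhlhe40 ratio do not overlap.

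Across the 12 libraries, which share the contrast between M1 and control cultures, Nfil3 and Bhlhe40 followed each other with a Pearson correlation of 0.996, Bhlhe41 followed Bhlhe40 at 0.913, and Dbp followed Tef at 0.608; these are descriptions on log2(TPM + 1). The 3 genes of at least 5 TPM most like Nfil3 were Plagl2, a zinc finger factor, Il12b, the interleukin-12 subunit, and Srgn, the granule proteoglycan serglycin, each at 0.999. Il12b went from 0.712 to 2400 TPM in group means of WT and from 0.365 to 1770 TPM in M-BKO. Those most like Bhlhe40 were Pkp4, a plakophilin, Fnip2, a folliculin partner, and the actin-bundling gene Lcp1, also at 0.999.

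Bhlhe41 was closest to Sgk1, a serum- and glucocorticoid-induced kinase (0.988), Hgsnat, a lysosomal acetyltransferase (0.982), and Ankrd50, a gene of endosome recycling (0.977). As its choice by correlation implies, Sgk1 rose in the same steps over the groups as Bhlhe41. It went from 9.21 TPM in WT controls and 12.6 in M-BKO controls to 17.2 in WT M1 and 21.7 TPM in M-BKO M1 cultures. Tef came closest to Agpat4 (0.820) and Fabp5 (0.819), both of lipid handling, and Tmem120b (0.814). Dbp came closest to Gnl1 (0.814), the endosomal gene Wdr91 (0.780) and the peptide transporter Tap2 (0.775).

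Of the genes nearest to Nfil3 and Bhlhe40, none rose with M1, while 12.9% of all genes tested were called higher in WT and 12.3% in M-BKO. Bhlhe40 lies between Itpr1, an inositol trisphosphate receptor, and Arl8b, a lysosomal GTPase, 109513 and 116134 bases away, which fell by 2.12 (adjusted p = 2.8e-13, limma) and 0.90 (adjusted p = 1.0e-06) on the log2 scale with M1 in WT. Around Nfil3, Auh differed by 0.0051 (adjusted p = 0.958) and Sptlc1, of sphingolipid synthesis, fell by 0.81 (adjusted p = 4.5e-09). Beside Bhlhe41, Itpr2 rose by 0.72 (adjusted p = 2.8e-07). Rasip1, an endothelial GTPase effector 66155 bases before Dbp, rose by 1.01 (adjusted p = 9.4e-08), from 0.177 to 1.36 TPM. It passed the filter only through M1 cultures, so its rise was built into being tested. Zc3h7b, before Tef, was called lower in WT, at -1.06 (adjusted p = 1.0e-08). Not called in WT were Sphk2, which overlaps Dbp, at 0.58 (adjusted p = 8.4e-05) and Tob2, after Tef, at 0.57 (adjusted p = 2.6e-06). The same held for Rassf8 at -0.22 (adjusted p = 0.0382) and, around Hlf, Mmd at -0.55 (adjusted p = 1.6e-04) and Cox11 at 0.11 (adjusted p = 0.314). In M-BKO the calls were the same, except that Mmd was called lower (-0.65, adjusted p = 3.3e-05, limma) and Itpr2 was not called (0.50). Between genotypes none of the 12 neighbouring genes was called, including Rassf8 and Itpr2 (-0.084 and 0.15 without LPS) and the neighbours of Tef, Zc3h7b and Tob2 (0.20 and 0.18, adjusted p = 0.155 each). Of all genes 4.56% were higher and 1.12% lower without LPS, and 5.87% and 2.45% after M1, so few calls would be looked for among 12.

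Some other clock genes with described E-boxes had larger differences between genotypes than Bhlhe41, in both directions, and others smaller ones; these sizes were not tested against each other. Of 16 listed outputs of Bmal1 and Clock, which include 4 of the tested genes described here, 15 were found and 13 tested. Without LPS 6 were called higher in M-BKO and 2 lower, with a median of 0.25 against 0.065 over all genes. After M1 these were 5 and 2, with a median of 0.25 against 0.033. The shares of all genes were 4.56% higher and 1.12% lower without LPS, and 5.87% and 2.45% after M1. After median-ratio scaling 5 and 2 of the listed genes were called without LPS, and 4 and 2 after M1. The shares of all genes were then 1.32% and 1.74%, and 3.85% and 4.40%. Cry1, a repressor of Clock and Bmal1, differed by 2.15 (adjusted p = 7.2e-11, limma) and Cry2 by 1.35 (adjusted p = 2.2e-06) without LPS, against 0.54 for Bhlhe41. Nr1d2 and Nr1d1, the REV-ERB receptors that repress Bmal1 transcription, were lower, by -2.50 (adjusted p = 2.7e-09) and -0.89 (adjusted p = 5.2e-04). Nr1d1 averaged 1.18 TPM in WT and 0.170 TPM in M-BKO controls, and Cry2 1.61 and 5.66 TPM. As log2(TPM + 1) understates changes of low genes, the order of these sizes is not that of the folds in TPM. Usp2, a deubiquitinase, differed by 0.76 (adjusted p = 8.5e-04) without LPS and 0.29 (adjusted p = 0.114) after M1. Per2, called higher in M-BKO in both, was at 0.245 to 0.426 TPM in WT controls and 0.516 to 0.680 TPM in WT M1 cultures. In M-BKO it was at 1.89 to 2.24 TPM in controls and 1.98 to 2.35 TPM after M1. It passed the filter only through M-BKO cultures, so being higher there was built into being tested. Per1, Wee1 and Nampt, the last a NAD synthesis enzyme, had 0.18, 0.057 and 0.026 without LPS. After M1 they had 0.095, 0.30 and 0.23. Of these only Nampt was called (adjusted p = 0.0352, limma), and not after median-ratio scaling (adjusted p = 0.0552). With M1, 7 of the 13 rose and 2 fell in WT, the latter being Wee1 and Usp2, and 6 rose and 2 fell in M-BKO (medians 0.65 and 0.16). After median-ratio scaling 7 rose and 1 fell in WT and 6 and 1 in M-BKO, as Usp2 in WT (-0.48) and Wee1 in M-BKO (-0.45) were no longer called. Of all genes 22.9% then rose and 21.1% fell in WT, and 22.4% and 22.1% in M-BKO.

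**Figure D5:**
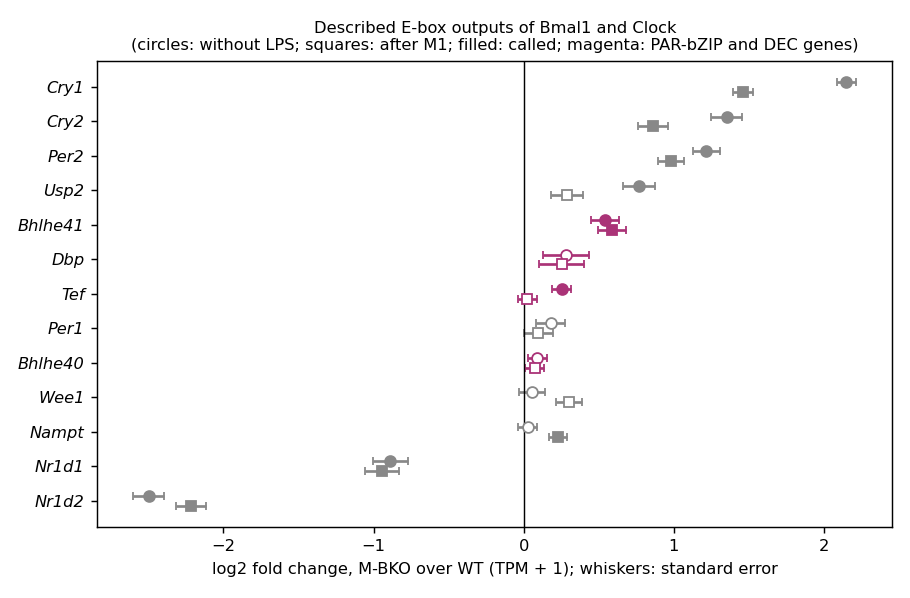
Log2 fold change of M-BKO over WT on TPM + 1 (x axis, whiskers are standard errors) for the 13 tested E-box outputs, without LPS (circles) and after M1 (squares); filled symbols are called and the genes described here are magenta. Bhlhe41, at 0.54 and 0.59, lies below the cryptochromes and Per2, and without LPS also below Usp2 at 0.76. Per2 passed the filter only through M-BKO cultures. The REV-ERB genes lie below 0, and the remaining outputs between 0 and Bhlhe41.

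Of 22 core clock and feedback genes, 21 were found and 15 tested. This list shares the Per, Cry and REV-ERB genes with the E-box outputs, so the counts are not separate. With M1 6 rose and 1, Tipin, fell in WT, and 5 and 1 in M-BKO (medians 0.24 and 0.16, against -0.43 and -0.45 over all genes). The shares of all genes were 12.9% higher and 41.0% lower in WT, and 12.3% and 42.3% in M-BKO. Without LPS 3 were higher in M-BKO, these being Cry1, Cry2 and Per2, and 4 were lower, among them Nr1d2 and Arntl itself. The same numbers were called after M1. Per2 passed the filter only through M-BKO cultures, so being higher there was built into being tested. Between genotypes the shares of all genes were 4.56% higher and 1.12% lower without LPS, and 5.87% and 2.45% after M1. All 8 clock genes with described D-boxes are in the core list too. Of these, 6 were tested and 5, already counted above, rose with M1 in each genotype (medians 1.19 and 1.06). Per1 had 1.85 (adjusted p = 2.5e-10, limma) in WT and 1.76 (adjusted p = 3.9e-10) in M-BKO, and Cry1 had 1.56 and 0.87. Between genotypes 2 of the 6, Cry1 and Per2, were higher and 2 lower in both conditions. These are again among the core clock genes counted above, beside the same shares of all genes.

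Of 5 described PAR-bZIP targets outside the clock, 3 were tested and 2 rose with M1 in both genotypes. The medians were 2.07 and 2.08, against -0.43 and -0.45 over all genes, of which 12.9% and 12.3% rose. Por, the electron donor of cytochromes P450, rose by 2.97 (adjusted p = 1.7e-14, limma) in WT and 2.70 in M-BKO, and Alas1, the first enzyme of heme synthesis, by 2.07 (adjusted p = 2.8e-14) and 2.08. The third, the pyridoxal kinase Pdxk, had -0.40 in WT and -0.51 in M-BKO and was not called. Por and Pdxk were called higher in M-BKO without LPS, at 0.24 (adjusted p = 0.0414) and 0.18 (adjusted p = 0.0238), and neither after median-ratio scaling (adjusted p = 0.31 and 0.307). After M1 none of the 3 was called between genotypes (limma, 0 also at an unadjusted p under 0.05).

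Of 8 described immune targets of Nfil3 or Bhlhe40, the 3 tested, Il12b, Il10 and Id2, rose with M1 in both genotypes. The medians were 2.38 and 2.02, against -0.43 and -0.45 over all genes, of which 12.9% and 12.3% rose. Il12b was at 0.391 to 1.09 TPM in WT controls and 0.189 to 0.499 TPM in M-BKO controls. It passed the filter only through M1 cultures, so its rise was built into being tested. Il10, the anti-inflammatory cytokine, went from 6.15 ± 0.624 to 36.1 ± 1.33 TPM in WT and from 6.91 ± 0.358 to 31.2 ± 1.37 TPM in M-BKO (SD, n = 3). After M1 it differed between genotypes by -0.21 (adjusted p = 0.0846, limma), and by -0.26 (adjusted p = 0.0342) after median-ratio scaling, where Il12b also passed (-0.48, adjusted p = 0.0323, from -0.43 and 0.0795). Id2, an inhibitor of helix-loop-helix factors, was called higher in M-BKO without LPS (0.23, adjusted p = 0.0315), but not after scaling (0.16, adjusted p = 0.112). Of 10 relatives of the DEC factors in the Hes and Hey families only Hes6 was tested, at -0.47 (adjusted p = 1.5e-04) with M1 in WT, which is under the fold of 1.5.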

How the data were processed

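RNA-seq libraries of 12 BMDM cultures, 3 in each of 4 groups, were used. Per the study's methods, the authors made stranded mRNA libraries, trimmed the reads, aligned these with CLC Genomics Workbench to mouse build mm10 (version and gene annotation not given in the sources used here), and deposited gene values in TPM. TPM keep no depth, so precision was taken from the spread between the 3 cultures of a group. Deposited fold changes, p-values and FDR of the authors' own comparisons were not used.

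Values were tested with limma 3.58.1 in R 4.3.3 on log2(TPM + 1) for the 10822 of 23440 genes that reached 1 TPM in 3 or more of the 12 libraries. The 4 group means were fitted together (8 residual degrees of freedom, variances following a trend with the mean level), and p-values were adjusted by Benjamini-Hochberg over all genes within a comparison. An adjusted p below 0.05 was required of each call and, for M1 responses, also a fold above 1.5, as in the study. Python 3.11.15 and pandas 2.3.3 were used for levels, ratios, correlations and promoter windows. The fit was tested on simulated data. The genes and lists were chosen with earlier results of these data known. Named beside the 6 genes are the 3 best correlated genes of each tested gene (mean of at least 5 TPM, predicted genes left out), the nearest tested gene on each side, and up to 2 called genes per direction of each list. Further names were added after values were seen. Alternatives varied the pseudocount, filter, scaling, variance model, groups fitted, replicate block and libraries.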

Additional observations from a re-analysis of the deposited data

How the results depend on the processing

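The number of the 6 genes called stayed at 3, 3, 1 and 0 in the M1 responses of WT and M-BKO, in M-BKO against WT after M1 and in the interaction, under every alternative run. Without LPS it fell from 2 to 1, with the loss of Tef, under median-ratio scaling, quantile normalization, rescaling without Lyz2, rescaling without the 50 most abundant genes and a fit of only the groups compared, and was 1 to 2 with 1 library left out. Over all genes, the calls without LPS went from 615 to 331, 404, 349, 337 and 273 under these 5 settings, and the interaction from 149 to 224 with a pseudocount of 5. With 1 library left out, calls over all genes were 286 to 878 without LPS, 460 to 1793 (from 900) after M1 and 57 to 213 in the interaction. The 1793 came without WT control replicate 3. Each M-BKO library, replicates 2 and 3 of WT M1 and replicate 2 of the WT controls also moved at least 1 of these numbers by over 1.5-fold. No value of the 5 tested genes was called in opposite directions. Replicate numbers showed no pairing (residual correlations of same-numbered libraries of -0.249 to 0.258, 5 of 12 libraries closest to their own number); with the replicate block, 3, 3, 1, 2 and 0 of the genes were called and 5836, 5914, 845, 551 and 134 of all genes. TPM do not show depth, so low values such as those of Hlf have no counting limit here.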
